A study of Sus scrofa with 4 samples.

Results

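Fragments of ribosomal RNA were followed in small RNA libraries of pig vascular stem cells, before and after an adipogenic stimulus. They were taken as every entry of 3 of the 433 Rfam families of the deposited counts. These were SSU_rRNA_5 (the 5′ domain of small subunit rRNA), 5S_rRNA and 5_8S_rRNA. Rfam is a database of structured RNA families, and an entry is 1 database record assigned to a family. The 3 families held 13099 of 41706 Rfam entries listed in at least 1 library, with 8360 entries for SSU_rRNA_5, 3899 for 5S_rRNA and 840 for 5_8S_rRNA. Most listed entries had no read, and 2153, 914 and 214 entries of these families had at least 1 read in some library.

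The ribosome's small subunit holds 18S rRNA, and its large subunit holds 5S, 5.8S and 28S rRNA. RNA polymerase I transcribes 18S, 5.8S and 28S rRNA as a single precursor that small nucleolar RNAs and nucleases fold, modify and cut, whereas RNA polymerase III transcribes 5S rRNA from separate genes. Because rRNA makes up most of a cell's RNA, its breakdown products enter small RNA libraries along with miRNAs, and their level is often read as a view of rRNA turnover or of RNA degradation during preparation.

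The 4 groups were SVSC MDI, SVSC, IVSC MDI and IVSC, with 1 library each (n = 1), to set miRNA profiles of adipogenesis in 2 primary cell types side by side. SVSC were isolated from pig subcutaneous fat and IVSC from dorsal longissimus dorsi muscle, both used at passage 1 and grown in DMEM/F12 with 20% serum. IVSC were plated at the higher density. In the labels the cell type of all 4 samples is given as adipose derived, also for the muscle cells. SVSC MDI and IVSC MDI were induced 2 days after confluence with dexamethasone at 0.25 µM, insulin at 5 mg/l and IBMX at 0.5 mM, a hormone mix with a glucocorticoid and an inhibitor of phosphodiesterases. The first and the last of these were removed after 3 days, growth medium came back at day 6, and cells were kept for a further 3 or 4 days. SVSC and IVSC had no inducers. All 4 libraries came from fragments of 16 to 35 nt of total RNA with an RNA Integrity Number above 7 and a 28S/18S ratio above 0.7. The number of animals is not given by the sources used here. Library differences therefore have no replicate check and include whatever set the animals or preparations apart.

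The libraries differed in size. The counts summed to 5166494 reads in SVSC MDI, 25725723 in SVSC, 20739428 in IVSC MDI and 21590587 in IVSC. SVSC MDI was the shallowest library. Levels are given as RPM, reads scaled to a library sum of 1000000. A count of 0 allows up to 3 reads, which is 0.581 RPM in SVSC MDI and 0.117 to 0.145 RPM in the other 3 libraries. Of these reads, 55.0 to 77.0% lay on miRNA hairpins and 6.16 to 9.99% on Rfam entries. Ensembl non-coding RNAs took 38.5% in SVSC MDI, against 15.7% in SVSC, 14.0% in IVSC MDI and 19.3% in IVSC. A near-equal pair of Ensembl transcripts stood out in every library. It had 943433 and 943439 reads in SVSC MDI, and 1523644 and 1523639 in SVSC. It had 1016711 and 1016704 reads in IVSC MDI, and 1562482 and 1562481 in IVSC. Such reads lower the RPM of every other feature of the same library. The perivascular and mesenchymal miRNA markers (miR-143, miR-145, miR-199a, miR-199b and miR-214) had reads for 5 of 5 members in every library. Of 5 blood cell markers, miR-144 and miR-223 were at 0 in all 4 libraries. The other 3 (miR-142, miR-451 and miR-486) summed to 12.8 RPM in SVSC MDI, 7.54 in SVSC, 24.8 in IVSC MDI and 24.5 in IVSC. Of 6 epithelial markers 1 had reads, at most 9 in a library.

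The 3 families together were a small share of every library, and the share was lower in each MDI library than in its uninduced partner. They took 0.0799% of all reads in SVSC MDI and 0.135% in SVSC, and 0.111% in IVSC MDI and 0.153% in IVSC. Set against reads on miRNA hairpins, there were 1.45 rRNA reads per 1000 hairpin reads in SVSC MDI and 1.79 in SVSC, and 1.44 in IVSC MDI and 2.17 in IVSC. Both MDI libraries thus lay below both uninduced libraries on either measure. In bulk libraries, fewer cells of a type and less RNA per cell cannot be told apart, and a share also moves when other RNAs change.

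**Figure D1:**
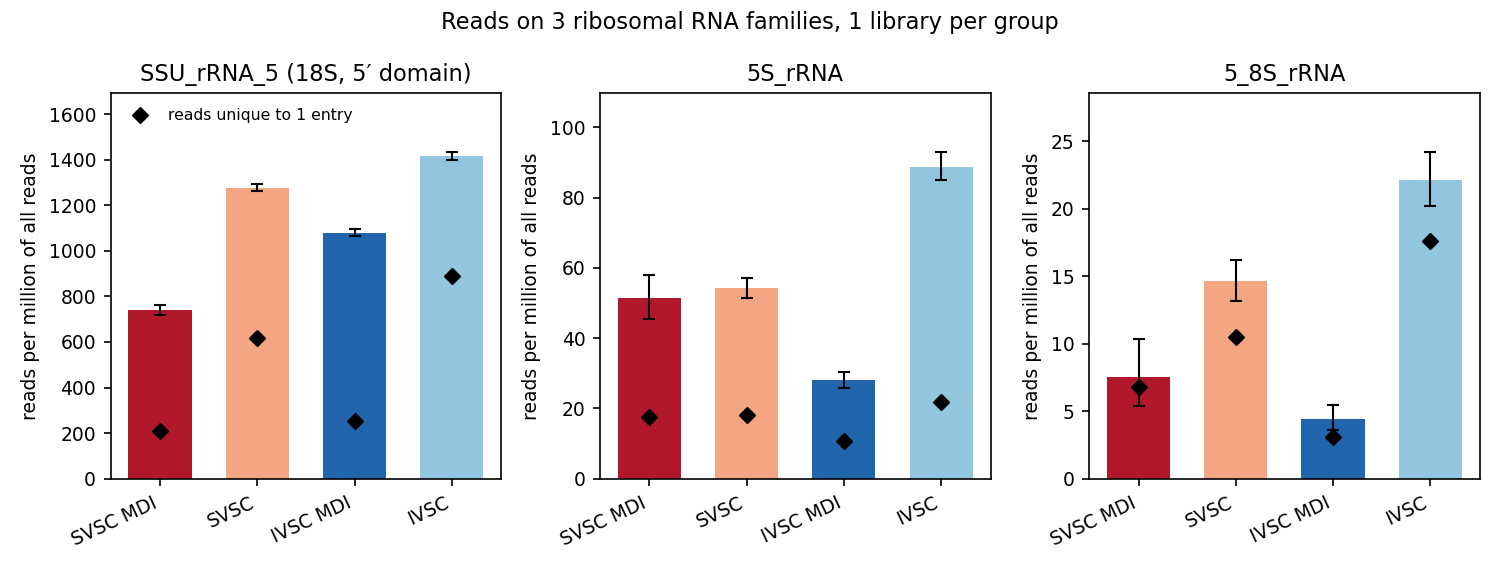
RPM (y axis) of SSU_rRNA_5, 5S_rRNA and 5_8S_rRNA in the 4 libraries (x axis), with 1 library per bar, exact 95% Poisson intervals of the count as error bars and diamonds for the reads that match 1 entry only. SSU_rRNA_5 and 5_8S_rRNA are lower in each MDI library than in its uninduced partner, while 5S_rRNA is lower in IVSC MDI and about equal in SVSC MDI and SVSC.

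SSU_rRNA_5, the start of the small subunit RNA, supplied 92.6 to 97.1% of the reads of the 3 families. It had 3825 reads in SVSC MDI and 32855 in SVSC, or 740 and 1277 RPM. It had 22401 reads in IVSC MDI and 30581 in IVSC, or 1080 and 1416 RPM. The MDI library was the lower of each pair, and SVSC MDI was the lowest of all. The ratio was 0.580 for SVSC MDI over SVSC (95% counting interval 0.560 to 0.599) and 0.763 for IVSC MDI over IVSC (0.750 to 0.776). Neither reached the 2-fold difference set here for a call, which also asks for an interval that excludes 1 and at least 10 RPM in 1 of the libraries.

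5S_rRNA, the polymerase III product, differed between the cultures in how its level stood after induction. It had 266 reads in SVSC MDI and 1393 in SVSC, or 51.5 and 54.1 RPM. It had 583 reads in IVSC MDI and 1918 in IVSC, or 28.1 and 88.8 RPM. IVSC MDI was the lowest library and IVSC the highest, with both SVSC libraries between them. 5S_rRNA fell 3.16-fold in IVSC MDI relative to IVSC (counting interval of the fold 2.88 to 3.47), and the ratio of SVSC MDI over SVSC was 0.951 (0.831 to 1.08), an interval that includes 1.

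5_8S_rRNA, cut from the same precursor as 18S rRNA, was the rarest of the 3. It had 39 reads in SVSC MDI and 376 in SVSC, or 7.55 and 14.6 RPM. It had 92 reads in IVSC MDI and 477 in IVSC, or 4.44 and 22.1 RPM. Both MDI libraries were below both uninduced ones, and none of the 4 counting intervals overlapped except those of SVSC MDI and IVSC MDI. 5_8S_rRNA fell 4.98-fold in IVSC MDI relative to IVSC (3.98 to 6.30). The ratio of SVSC MDI over SVSC was 0.516 (0.361 to 0.719), just short of a call.

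Against the background of all Rfam families, 5S_rRNA and 5_8S_rRNA were 2 of 12 families called lower in IVSC MDI relative to IVSC, where 21.4% of 56 families compared were called lower and 44.6% were called in either direction. In SVSC MDI relative to SVSC, 0 of the 3 families were called, where 33.9% of 56 families were called lower. The median log2 ratio over the families compared was -0.48 in SVSC and 0.21 in IVSC. On the same scale SSU_rRNA_5 stood at -0.79 in SVSC and -0.39 in IVSC, 5S_rRNA at -0.07 and -1.66, and 5_8S_rRNA at -0.95 and -2.32. The 2-fold calls of 5S_rRNA and 5_8S_rRNA in IVSC held under all 6 other scalings of the libraries that were run. The direction of 5S_rRNA in SVSC did not hold, being above 1 when scaled to hairpin reads (1.30), to TMM library sizes (1.23) or to DESeq2 size factors (1.07). Relative to scaling by all reads, TMM moved every log2 ratio of MDI over uninduced by 0.37 in SVSC and by -0.41 in IVSC.

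The size of the MDI response differed between cultures in all 3 families by all reads, beyond intervals that treat each count as a separate read. Where a read is counted at several entries, such intervals are too narrow. For SSU_rRNA_5 the direction of that difference depended on the scale and the reads counted. As SVSC minus IVSC, the log2 ratios of MDI over uninduced differed by -0.40 for SSU_rRNA_5 (95% counting interval -0.45 to -0.34), by 1.59 for 5S_rRNA (1.36 to 1.82) and by 1.36 for 5_8S_rRNA (0.79 to 1.94). For SSU_rRNA_5 the difference turned to 0.27 (0.17 to 0.37) with only reads that match 1 entry, to 0.19 when scaled to hairpin reads, to 0.38 with TMM sizes and to 0.14 with DESeq2 size factors. For 5S_rRNA it stayed positive under all 15 alternatives run, and for 5_8S_rRNA under all but 1, in which its 3 leading entries were left out (-0.21). Of the alternatives, the expression values and the exactly matching reads only repeated the main values. The response differences compare 4 libraries and carry no spread between cultures.

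A fit over all 4 libraries with culture and MDI as additive terms gave no family past the threshold. In edgeR's quasi-likelihood test the shared MDI effect on the log2 scale was -0.61 ± 0.57 for SSU_rRNA_5 (SE, adjusted p = 0.586), -0.89 ± 0.72 for 5S_rRNA (adjusted p = 0.522) and -1.67 ± 0.77 for 5_8S_rRNA (adjusted p = 0.238). The unadjusted p of 5_8S_rRNA was 0.0479 (edgeR). All 3 estimates were negative, and 17 of 643 features of the whole table were called (2.64%), 13 higher and 4 lower. The effect of origin shared by both states, SVSC over IVSC, was -0.03 ± 0.56 for SSU_rRNA_5, 0.39 ± 0.72 for 5S_rRNA and 0.36 ± 0.75 for 5_8S_rRNA. Each of these had an edgeR adjusted p of 1.00, and 1 of 643 features was called (0.156%). The fit had 1 residual degree of freedom, so its spread came mostly from all features together and does not measure animals. In simulated counts, with 1 dispersion for all features and 200 of 643 features changed, the real data may differ in both. There the fit called 0% of features changed 2-fold with MDI, 42.5% of those changed 4-fold and 86% of those changed 8-fold. A family without a call may therefore still have changed.

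The SSU_rRNA_5 values depended on which reads were counted. Entries of 1 family are related RNAs from different records, and a read that matches several entries appears to be counted at each of them. In IVSC, for example, 5 entries of 5S_rRNA had 43 reads each, and none of these reads matched 1 entry only. Family sums can therefore exceed the number of sequenced fragments. Counting intervals of such sums treat each count as a separate read, and are too narrow to that extent. The deposited files also give the reads that match 1 entry only, here called unique reads, in which no fragment is counted at a second entry. The split by unique reads was chosen after seeing the data.

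Unique reads of SSU_rRNA_5 fell with MDI in both cultures. They came to 1087 reads (210 RPM) in SVSC MDI and 15887 (618 RPM) in SVSC. They came to 5213 reads (251 RPM) in IVSC MDI and 19192 (889 RPM) in IVSC. The MDI libraries were close to each other and far below both uninduced libraries. The fall was 2.94-fold in SVSC MDI relative to SVSC (2.76 to 3.12), where 37.1% of 35 families compared by unique reads were called lower, and 3.54-fold in IVSC MDI relative to IVSC (3.43 to 3.65), where 27% of 37 were. Both falls held under all 6 other scalings, but the fall in IVSC rested on 1 entry, BC155300.1/7-370. The unique reads of all other entries came to 112 RPM in SVSC MDI and 242 RPM in SVSC, a 2.17-fold fall (1.99 to 2.36), and to 129 RPM in IVSC MDI and 197 RPM in IVSC, a ratio of 0.654 (0.623 to 0.687) and no call. That fall in SVSC was itself lost when scaled to hairpin reads (ratio 0.632), TMM sizes (0.595), DESeq2 size factors (0.517) or with a near-equal pair of Ensembl transcripts counted once (0.531), and the ratio in IVSC became a call with TMM sizes (0.492). Under this measure 5S_rRNA fell 2.07-fold in IVSC MDI (10.6 RPM, against 22.0 RPM in IVSC) and stood at 17.6 RPM in SVSC MDI, against 18.1 RPM in SVSC. Without the most abundant feature in the scale, the 5S_rRNA ratio of IVSC MDI over IVSC by unique reads was 0.525, short of a call. 5_8S_rRNA fell 5.70-fold in IVSC MDI (3.09 RPM, against 17.6 RPM in IVSC) and was at 6.77 RPM in SVSC MDI, against 10.5 RPM in SVSC.

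Shared reads of SSU_rRNA_5 moved otherwise. They stood at 530 RPM in SVSC MDI and 660 RPM in SVSC, a ratio of 0.803 (0.771 to 0.837). They stood at 829 RPM in IVSC MDI and 527 RPM in IVSC, a ratio of 1.57 (1.53 to 1.61). Shared reads were therefore lower in SVSC MDI and higher in IVSC MDI than in the uninduced partner, short of 2-fold in both. They made up 71.6% of the family sum in SVSC MDI and 51.6% in SVSC, and 76.7% in IVSC MDI and 37.2% in IVSC. How many entries a shared fragment matched is not given by the files.

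**Figure D2:**
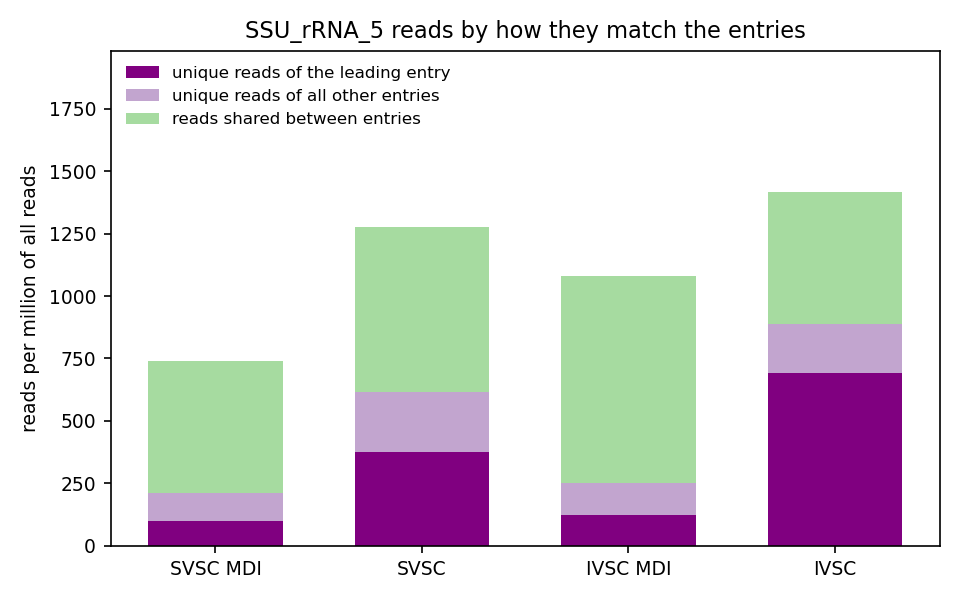
RPM of SSU_rRNA_5 (y axis) in the 4 libraries (x axis), stacked from 0 as unique reads of the leading entry, unique reads of all other entries and reads shared between entries. The segment of the leading entry is far smaller in SVSC MDI (98.5 RPM) and IVSC MDI (123 RPM) than in SVSC (375 RPM) and IVSC (692 RPM), the unique reads of all other entries differ less, and the shared segment is largest in IVSC MDI, at 829 RPM.

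If every shared read of a family lay within it and was counted in full at each entry, the number of distinct fragments would lie between the unique reads plus the largest shared count and the unique reads plus the shared sum divided by 2. For SSU_rRNA_5 these bounds were 229 to 475 RPM in SVSC MDI and 673 to 947 RPM in SVSC. They were 270 to 666 RPM in IVSC MDI and 941 to 1153 RPM in IVSC. Within each culture the bounds of the MDI library lay wholly below those of its uninduced partner. For 5S_rRNA the bounds were 24.4 to 34.5 RPM in SVSC MDI and 26.7 to 36.1 RPM in SVSC, which overlap, and 18.5 to 19.4 RPM in IVSC MDI and 43.3 to 55.4 RPM in IVSC, which do not. For 5_8S_rRNA they were 6.97 to 7.16 RPM in SVSC MDI and 10.6 to 12.6 RPM in SVSC, and 3.23 to 3.76 RPM in IVSC MDI and 17.9 to 19.8 RPM in IVSC.

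A single entry carried 46.8% of the unique SSU_rRNA_5 reads in SVSC MDI and 60.7% in SVSC, and 48.8% in IVSC MDI and 77.9% in IVSC. This entry, BC155300.1/7-370, is a record of 364 nt and had 510 reads in SVSC MDI and 9803 in SVSC. It had 2570 reads in IVSC MDI and 15199 in IVSC. Between 98.3 and 99.8% of its reads matched it alone. It made up 13.3% of the family's reads in SVSC MDI (exact binomial 95% interval 12.3 to 14.5%), 29.8% in SVSC (29.3 to 30.3%), 11.5% in IVSC MDI (11.1 to 11.9%) and 49.7% in IVSC (49.1 to 50.3%). The entry fell 3.86-fold in SVSC MDI relative to SVSC (3.53 to 4.23) and 5.68-fold in IVSC MDI relative to IVSC (5.45 to 5.93). The organism of a record is not given by the files, and its bases were not used here.

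The family ratio rested on this entry in IVSC. Without it, the SSU_rRNA_5 ratio of IVSC MDI over IVSC was 1.34 (1.31 to 1.37) instead of 0.763, and that of SVSC MDI over SVSC was 0.716 (0.690 to 0.743). Without the 3 leading entries the ratios were 0.785 in SVSC and 1.51 in IVSC. The other 2 leading entries behaved like the first. EF025892.1/1-597 had 79 reads in SVSC MDI and 1703 in SVSC, a 4.33-fold fall, and 423 in IVSC MDI and 1058 in IVSC, a 2.40-fold fall. AY210449.1/18-613 had 73 reads in SVSC MDI and 1297 in SVSC, a 3.57-fold fall, and 393 in IVSC MDI and 1209 in IVSC, a 2.96-fold fall. Of their reads, 14.4 to 29.1% and 7.44 to 38.9% matched them alone, so part of what they hold is shared with other entries.

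**Figure D3:**
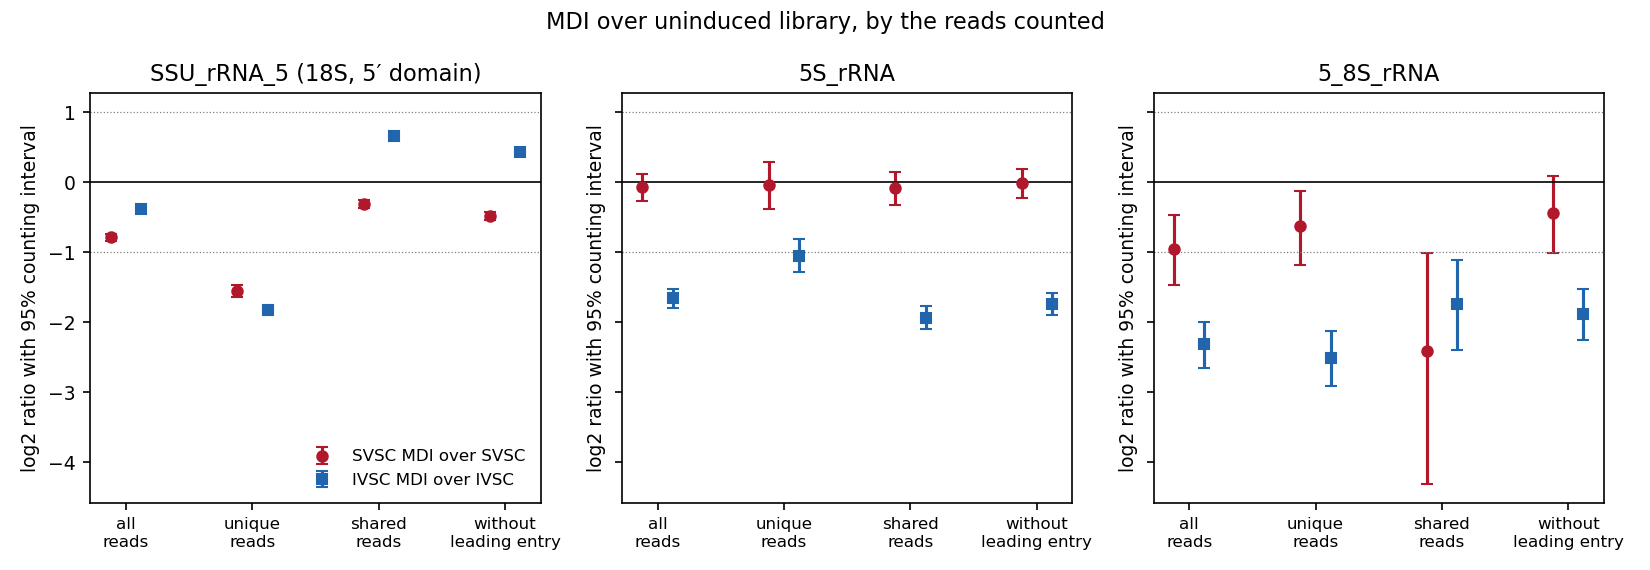
Log2 ratio of the MDI library over its uninduced partner (y axis, 95% counting intervals, dotted lines at 2-fold) for SVSC and IVSC, with each family counted by all reads, unique reads, shared reads or all reads without its leading entry (x axis). Unique SSU_rRNA_5 reads are lower with MDI in both cultures, shared SSU_rRNA_5 reads lie on opposite sides of 0, and 5S_rRNA is lower in IVSC under every measure and near 0 in SVSC under every measure.

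Entry by entry, SSU_rRNA_5 split into those that fell and those that rose, and these 2 sets differed in how many of their reads were unique. In IVSC MDI relative to IVSC, 54 entries had at least 10 RPM, of which 12 fell (2.08-fold to 5.68-fold) and 38 rose (2.77-fold to 9.20-fold). Among all Rfam entries compared, 27.1% fell and 30% rose there. The 12 entries that fell held 22178 reads in IVSC, of which 78.3% were unique. BC155300.1/7-370 alone held 15199 of these, and in the other 11 entries 34.7% of the reads were unique, with 2 of the 11 below 5%. The 38 that rose held 11848 reads in IVSC MDI, of which 2.88% were unique, and 34 of them had no unique read there. Their counts lay between 213 and 392 reads in IVSC MDI and between 32 and 102 reads in IVSC. Since shared reads stand at several entries, the 38 are not separate observations.

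In SVSC MDI relative to SVSC, 26 entries had at least 10 RPM, of which 14 fell (2.65-fold to 12.7-fold) and 8 rose. Among all Rfam entries compared, 55.4% fell and 9.14% rose there. The 14 that fell held 19896 reads in SVSC, of which 66.3% were unique. Without BC155300.1/7-370 the share was 35.1% over the other 13 entries, of which 2 were below 5%. The 8 that rose held 545 reads in SVSC MDI, of which 11.9% were unique. The pairs of libraries in the 2 cultures share no library, and 10 entries fell in both, which is 83.3% of the entries that fell in IVSC and 71.4% of those that fell in SVSC. The same share over all Rfam entries was not computed. Entries that share reads are not separate observations. Another 5 entries rose in both, 13.2% of those that rose in IVSC and 62.5% of those that rose in SVSC, and 0 rose in IVSC and fell in SVSC. Entries below 10 RPM in SVSC and SVSC MDI could not be called there. The 13.2% and the 0 were therefore limited by that threshold. Of the 5, AAPY01230271.1/12-650 had 58 reads in SVSC MDI and 93 in SVSC, a 3.11-fold rise, and 336 in IVSC MDI and 38 in IVSC, a 9.20-fold rise, with 0 unique reads in any of the 4 libraries.

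**Figure D4:**
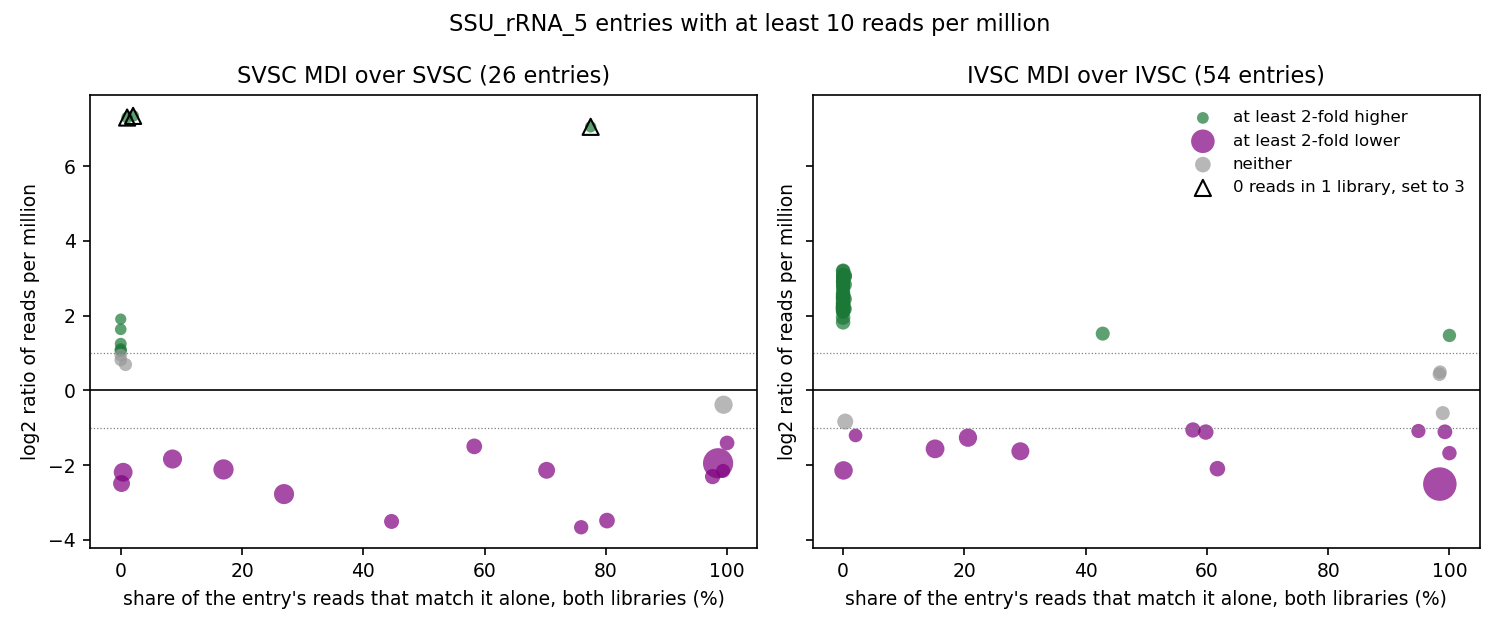
SSU_rRNA_5 entries with at least 10 RPM in 1 of the libraries compared, with the log2 ratio of MDI over uninduced (y axis) against the percentage of the entry's reads in both libraries that match it alone (x axis), larger points for more reads and triangles for entries with 0 reads in 1 library, set to 3. In IVSC the 38 entries that rose sit almost all at 0% unique reads. BC155300.1/7-370, the largest point, lies at the right of both panels. It is the lowest point in IVSC (log2 -2.51) but not in SVSC (-1.95).

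A few SSU_rRNA_5 entries were near absent from SVSC and present in SVSC MDI. These were named after their values were seen. EU794817.1/1-406 had 98 reads in SVSC MDI and 0 in SVSC, 163-fold higher with 0 set to 3 reads (lower counting limit 130-fold). DQ310772.1/2-497 had 95 and AACT01045851.1/383-790 had 80 reads in SVSC MDI, and both had 0 in SVSC. On the same basis they were 158-fold and 133-fold higher (lower counting limits 126-fold and 106-fold). AACT01045851.1/383-790 had 62 unique reads in SVSC MDI, while the other two had 2 and 1, so those 2 mostly shared their reads. In IVSC MDI the 3 entries had 41, 39 and 6 reads in the same order. The organism of these records is not given, and the source of their reads was not tested.

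The smaller families were spread over entries with few reads. In 5S_rRNA, AAWZ01046482.1/10181-10301 led with 35 reads in SVSC MDI and 227 in SVSC, and 163 in IVSC MDI and 461 in IVSC, and at most 6 of its reads in a library were unique. It fell 2.72-fold in IVSC MDI relative to IVSC (2.27 to 3.27) and was the only 5S_rRNA entry of that pair with at least 10 RPM. AAWZ01027992.1/15196-15318, whose reads were almost all unique, had 33 reads in SVSC MDI and 60 in SVSC (6.39 and 2.33 RPM). It had 39 in IVSC MDI and 91 in IVSC (1.88 and 4.21 RPM). It was thus higher in SVSC MDI and lower in IVSC MDI than in the partner library, at levels below the 10 RPM set for a call. AABR04108883.1/4042-4147 had 10 and 81 reads in SVSC MDI and SVSC, and 57 and 45 in IVSC MDI and IVSC, with counting intervals of both MDI ratios that include 1.

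In 5_8S_rRNA, FJ384928.1/607-762 had 5 reads in SVSC MDI and 146 in SVSC, and 11 in IVSC MDI and 167 in IVSC. It made up 12.8 and 12.0% of the family in SVSC MDI and IVSC MDI, against 38.8 and 35.0% in SVSC and IVSC. AF487716.1/1190-1347 had 147 reads in IVSC, of which 140 were unique, and 0 in the other 3 libraries. AAKN02051266.1/41784-41924 had 13 reads in SVSC MDI and 1 in SVSC, and 1 in IVSC MDI and 5 in IVSC. The call of 5_8S_rRNA in IVSC held without FJ384928.1/607-762 (ratio 0.272) and was lost without all 3, where the ratio was 0.527 and both libraries were below 10 RPM.

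Few entries were seen in every library. Reads in all 4 libraries were found for 210 of 2153 SSU_rRNA_5 entries with a read, 35 of 914 for 5S_rRNA and 6 of 214 for 5_8S_rRNA. The 210 SSU_rRNA_5 entries nevertheless held 87.9% of the family's reads in SVSC MDI, 92.2% in SVSC, 94.1% in IVSC MDI and 93.7% in IVSC. The 35 entries of 5S_rRNA held between 46.4 and 63.1% of that family's reads, and the 6 of 5_8S_rRNA between 41.3 and 71.8%. Entries with 1 read were 198 of 351 in SVSC MDI and 742 of 1293 in SVSC for SSU_rRNA_5, and 401 of 769 in IVSC MDI and 541 of 1014 in IVSC. The shallowest library, SVSC MDI, had the fewest entries in each family.

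Levels per length kept the order of the families. Divided by the mean entry length weighted by reads, SSU_rRNA_5 had 145 RPM per 100 nt in SVSC MDI, 259 in SVSC, 208 in IVSC MDI and 309 in IVSC. 5S_rRNA had 43.8 RPM per 100 nt in SVSC MDI, 46.8 in SVSC, 24.3 in IVSC MDI and 76.4 in IVSC. 5_8S_rRNA had 5.20, 9.70, 2.95 and 14.3 RPM per 100 nt in the same order of libraries. SSU_rRNA_5 exceeded 5S_rRNA, and 5S_rRNA exceeded 5_8S_rRNA, in each of the 4 libraries. SSU_rRNA_5 covers the start of small subunit rRNA only, so its level is not that of the whole RNA. One further Rfam family with rRNA in its name, PK-G12rRNA, had 5 reads in SVSC MDI, 31 in SVSC, 17 in IVSC MDI and 33 in IVSC.

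Before induction, all 3 families were lower in SVSC than in IVSC, each by less than 2-fold. The ratio of SVSC over IVSC was 0.902 (0.888 to 0.916) for SSU_rRNA_5, 0.610 (0.568 to 0.653) for 5S_rRNA and 0.662 (0.576 to 0.759) for 5_8S_rRNA, and 22% of 50 Rfam families were called in either direction. Without its leading entry the SSU_rRNA_5 ratio was 1.26. The 4 SSU_rRNA_5 entries that were at least 2-fold higher in SVSC were AAFR03016230.1/157127-157453 (2.02-fold), AK300665.1/420-807 (2.24-fold), U63552.1/2-579 (2.36-fold) and EF025882.1/1-552 (2.50-fold), out of 17 compared, and 0 were lower, where 32.2% of all Rfam entries were higher and 8.96% lower.

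After induction the order of the cultures was the other way round for the 2 large subunit RNAs. The ratio of SVSC MDI over IVSC MDI was 1.83 (1.58 to 2.12) for 5S_rRNA and 1.70 (1.14 to 2.50) for 5_8S_rRNA, the second below 10 RPM in both libraries and so outside the calls. For SSU_rRNA_5 it was 0.685 (0.662 to 0.709), and 39.6% of 53 Rfam families were called in either direction. None of the 3 families was called in either comparison of origin with all reads as the scale, whereas 5S_rRNA passed 2-fold after induction when scaled to hairpin reads (2.56), TMM sizes (2.98) or DESeq2 size factors (2.63). With TMM the SSU_rRNA_5 ratio was 1.12, since TMM moved every log2 ratio of this pair by 0.70. Of 50 SSU_rRNA_5 entries compared, 4 were higher and 4 lower in SVSC MDI, where 5.04% of all Rfam entries were higher and 24.5% lower. U63552.1/2-579 was among those higher, with 160 reads in SVSC MDI and 165 in IVSC MDI, 3.89-fold higher in RPM, and 160 and 164 of these reads were unique.

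RNAs that take part in cutting and folding the rRNA precursor were mostly too rare to compare. Of 10 names listed for this role, 7 had entries and 2 reached 10 RPM. U3, the small nucleolar RNA needed for the first cuts that release 18S rRNA, had 9.87 RPM in SVSC MDI and 14.3 in SVSC, and 10.5 in IVSC MDI and 13.8 in IVSC, and was not called in any of the 4 comparisons. SNORA73, or U17, whose yeast counterpart snR30 is needed to make 18S rRNA, had 92.3 RPM in SVSC MDI and 235 in SVSC, and 209 in IVSC MDI and 285 in IVSC. SNORA73 fell 2.54-fold in SVSC MDI relative to SVSC, where 33.9% of families were called lower. It was 2.26-fold lower in SVSC MDI than in IVSC MDI (where 32.1% of families were called lower), and had a ratio of 0.734 in IVSC MDI over IVSC. Scaled to hairpin reads or TMM sizes, its ratio of SVSC MDI over SVSC was 0.539 or 0.507 and no call was made, and that of SVSC MDI over IVSC MDI was 0.619 or 0.720. The median log2 ratio of the pair with MDI was -0.94 in SVSC and -0.42 in IVSC. In the fit over 4 libraries RNase_MRP, the RNA of a nuclease that in yeast cuts the precursor ahead of 5.8S rRNA, rose with MDI (log2 4.75 ± 1.15 (SE), edgeR adjusted p = 0.0400). RNase_MRP had only 15 reads in SVSC MDI and 5 in SVSC, and 26 in IVSC MDI and 0 in IVSC, so the fitted size depends on how 0 is treated. This was 1 of 5 members of the list that entered the fit, and the other 4 had adjusted p-values between 0.369 and 0.985 in edgeR. Over all features of that fit, 17 of 643 were called (2.64%).

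Fragments of other structural RNAs gave the scale of change around rRNA. Of 18 names 17 had entries, and 5 reached 10 RPM in 1 library of each MDI pair. Among all families compared, 16.1% were called higher in SVSC MDI and 23.2% in IVSC MDI, and 33.9% and 21.4% were called lower. Y_RNA, small RNAs bound by the Ro protein, rose 6.70-fold in SVSC MDI (195 RPM, against 29.2 RPM in SVSC) and 6.00-fold in IVSC MDI (248 RPM, against 41.4 RPM in IVSC). 7SK, which holds the elongation factor P-TEFb inactive, rose 23.9-fold in SVSC MDI (98.3 RPM, against 4.12 RPM in SVSC) and 9.86-fold in IVSC MDI (52.1 RPM, against 5.28 RPM in IVSC). Both also passed the fit over 4 libraries, at log2 2.64 ± 0.62 (SE, edgeR adjusted p = 0.0366) for Y_RNA and 3.91 ± 0.75 (adjusted p = 0.0192) for 7SK. Of 13 members of the list in that fit, 2 were called higher and 0 lower. Over all 643 features of the fit, 13 were called higher and 4 lower (2.64% in either direction). In SVSC MDI relative to SVSC, tRNA fell 2.07-fold (3963 RPM, against 8190 RPM) and U2, a spliceosomal RNA, fell 2.86-fold (30.0 RPM, against 85.8 RPM). The tRNA ratio was 0.663 when scaled to hairpin reads, 0.624 with TMM sizes, 0.542 with DESeq2 size factors and 0.557 with a near-equal pair of Ensembl transcripts counted once, none of them a call. In IVSC MDI relative to IVSC the ratios were 0.756 for tRNA and 0.865 for U2. SRP_euk_arch, the RNA of the signal recognition particle, had ratios of 1.28 in SVSC and 0.879 in IVSC. Among these 5, 2 rose and 2 fell in SVSC (median log2 0.35), and 2 rose and 0 fell in IVSC (median log2 -0.19). In SVSC MDI relative to IVSC MDI, U2 was 3.36-fold lower and the other 4 were not called, where 32.1% of families were called lower.

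**Figure D5:**
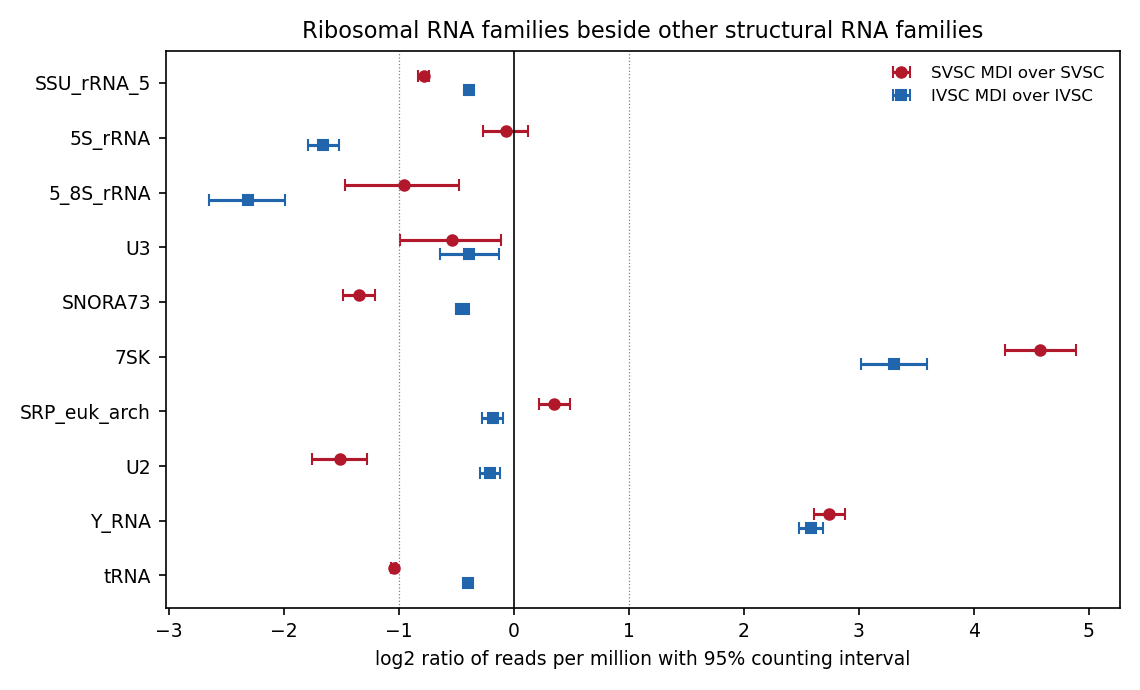
Log2 ratio of RPM for the MDI library over its uninduced partner (x axis, 95% counting intervals, dotted lines at 2-fold) in SVSC and IVSC for the 3 rRNA families, U3 and SNORA73, and the 5 other structural RNA families with at least 10 RPM (y axis). 7SK and Y_RNA lie right of the 2-fold line in both cultures, while the rRNA families lie left of 0, with 5S_rRNA in SVSC close to it at -0.07.

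Across the 4 libraries, the Rfam families whose levels were most like SSU_rRNA_5 were mir-143, tRNA and U3, with root mean square differences of 0.150, 0.150 and 0.196 in centred log2(RPM + 1). The first of these, abundant in smooth muscle, is also counted among the hairpins. 5S_rRNA was most like mir-214 (0.156), SNORD24 (0.325) and 5_8S_rRNA (0.326). 5_8S_rRNA was most like Intron_gpI (0.236), a family of self-splicing introns, 5S_rRNA (0.326) and SNORD24 (0.353). The 2 large subunit RNAs were thus among the 3 closest to each other, while SSU_rRNA_5 stood 9th and 10th in their lists. The 4 points share their library sizes, and the likeness is a description.

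The rRNA families summed were lower in each MDI library than in its uninduced partner. Still, 5S_rRNA was about equal in SVSC MDI and SVSC (ratio 0.951), and SSU_rRNA_5 without its leading entry was higher in IVSC MDI (ratio 1.34). The miRNA markers of skeletal muscle were also lower in each MDI library. The 5 members (miR-1, miR-133a, miR-133b, miR-206 and miR-499) all had reads in every library and summed to 442 RPM in SVSC MDI and 1292 in SVSC, and to 812 RPM in IVSC MDI and 3852 in IVSC. The endothelial marker miR-126 had 31.7 RPM in SVSC MDI, 36.7 in SVSC, 64.0 in IVSC MDI and 82.3 in IVSC. Other marker lists went the other way. The perivascular and mesenchymal markers summed to 203750 RPM in SVSC MDI and 182717 in SVSC, and to 286913 in IVSC MDI and 220610 in IVSC. The blood cell markers summed to 12.8 RPM in SVSC MDI and 7.54 in SVSC, and to 24.8 in IVSC MDI and 24.5 in IVSC. The part of these cells, and of library depth, in the rRNA values was not tested.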

How the data were processed

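Small RNA was sequenced from 4 pig cell cultures, 1 library per group. The deposited values are read counts per feature, per the file headers, from 4 resources (Sus scrofa hairpins, Ensembl non-coding RNAs, piRNAs and Rfam). The SVSC file deposited by the authors has damaged cells in a few tRNA entries of other columns, which were not used for rRNA. The mouse build mm9 appears in the submitters' processing notes with no role stated. No aligner, mismatch setting or rule for multiply matching reads is given in the sources used here. An unnamed entry of 4071523 in the SVSC MDI file was left out, and 3 blank totals in SVSC were taken from the expression values.

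The total of each entry was summed per Rfam family and divided by the sum of all features of the library, given as RPM. A read that matches several features appears to be counted more than once in that sum, though the rule is not given. Ratios have exact 95% Clopper-Pearson intervals conditional on both counts, and levels exact Poisson intervals (SciPy 1.17.1, NumPy 2.4.6, pandas 2.3.3, Python 3.11.15). Intervals hold counting error alone, because amplified reads carry no molecular identifiers and 1 molecule can give several. They treat each count as a separate read, and are too narrow where a read is counted at several entries. A call needs at least 2-fold, an interval without 1 and 10 RPM in 1 library, and a count of 0 was set to 3 for a fold. Over all 4 libraries, edgeR 4.0.16 (R 4.3.3, limma 3.58.1) fitted culture and MDI additively, with filterByExpr, TMM and Benjamini-Hochberg adjustment at 0.05, on 643 features (Rfam families, hairpin names and Ensembl transcripts). SE is the absolute log2 change over the root of F. DESeq2 1.42.0 was an alternative. The ratio interval was run on simulated Poisson reads, which is the model it assumes, so that check cannot cover reads counted at several entries. The edgeR fit was run on simulated counts with 1 dispersion for all features and 200 of 643 features changed. DESeq2 was not run on simulated data.

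The named items were the 3 families, the 3 entries with the most RPM in each, the 3 families most alike, and called members of the lists. Items outside this rule are named as examples of a count. The members and lists were chosen with earlier results of these data known. No sequences of the entries were used here.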

Additional observations from a re-analysis of the deposited data

Results flagged for a closer look

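Several ratios lay on opposite sides of 1 in the 2 arms of a contrast, each with a counting interval that excludes 1. With 1 library per group, the differences between arms were not tested against replicates.

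For origin, 5S_rRNA had a ratio of 1.83 for SVSC MDI over IVSC MDI and of 0.610 for SVSC over IVSC. Its unique reads had ratios of 1.66 and 0.823 and its shared reads of 1.94 and 0.539 in the same order. 5_8S_rRNA had a ratio of 1.70 after induction and 0.662 before it, and its unique reads had 2.20 and 0.596. Shared SSU_rRNA_5 reads went the other way, with 0.639 after induction and 1.25 before it, as did the entry EF025892.1/1-597, with 0.750 and 1.35.

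For MDI, shared SSU_rRNA_5 reads had a ratio of 0.803 for SVSC MDI over SVSC and 1.57 for IVSC MDI over IVSC. The 5S_rRNA entry AAWZ01027992.1/15196-15318 had 2.74 in SVSC and 0.446 in IVSC for MDI, and 3.40 after and 0.553 before induction for origin, on 33 to 91 reads per library.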

How the results depend on the processing

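Over 12 family ratios and 15 alternatives each, 151 of 180 values kept direction and side of the call, 14 became calls, 3 lost a call and 12 changed direction. The expression values and the exactly matching reads repeated the main MDI ratios, so their unchanged values add no check. The measures by unique reads, without leading entries and by fewest distinct reads, and the Ensembl pair counted once, were added after seeing the data. For SSU_rRNA_5 with MDI, the largest single entry (0.259 in SVSC, 0.176 in IVSC), unique reads (0.341, 0.283) and fewest distinct reads (0.340, 0.287) made calls. Without 1 or 3 leading entries SSU_rRNA_5 turned to 1.34 and 1.51 in IVSC MDI over IVSC and to 1.26 and 1.28 in SVSC over IVSC. It turned to 1.12 with TMM in SVSC MDI over IVSC MDI. 5S_rRNA in SVSC MDI over SVSC turned to 1.30 with hairpin reads, 1.23 with TMM, 1.07 with DESeq2 size factors and 1.09 with entries listed in all 4 files or the Ensembl pair counted once (1.09). In SVSC over IVSC 5S_rRNA became a call by its largest entry (0.413) and by entries of at least 10 reads (0.427). In SVSC MDI over IVSC MDI it became one with hairpin reads (2.56), TMM (2.98), DESeq2 size factors (2.63), without 1 or 3 leading entries (2.21, 2.33) and with the Ensembl pair counted once (2.13), and turned to 0.862 by its largest entry. 5_8S_rRNA in IVSC MDI over IVSC lost its call by the largest entry (0.0997), entries listed in all 4 files (0.221) and without 3 leading entries (0.527), each below 10 RPM, and without 3 leading entries its ratio of SVSC over IVSC was 1.22. The difference of the MDI response, SVSC minus IVSC, kept its direction in 38 of 45 values, the repeated ones included. It turned for SSU_rRNA_5 with hairpin reads (0.19), TMM (0.38), DESeq2 size factors (0.14), the largest entry (0.56), unique reads (0.27) and fewest distinct reads (0.24), and for 5_8S_rRNA without 3 leading entries (-0.21). The cause of changes under other scalings was not tested. For the other named items, mostly checked after seeing the data, 128 of 140 values kept their call and 12 lost it, all in the same direction. Features called for MDI were 17 by default, 56 with DESeq2 size factors, 40 unfiltered, 27 without TMM and 74 in DESeq2, and for origin 1, 5, 5, 5 and 8, and 24 of 24 alternative family values kept direction and side. With hairpin copies counted once, rRNA reads per 1000 hairpin reads were 1.61, 1.93, 1.56 and 2.49 (SVSC MDI, SVSC, IVSC MDI, IVSC). Adding Ensembl rRNAs was not run, since their IDs carry no class. No paired analysis was possible because no group has a second library, so replicate numbers pair nothing, while the additive fit holds culture as a term. SVSC MDI, with 5166494 reads, limits precision, above all for 5_8S_rRNA with 39 reads.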
